A study of Mus musculus with 6 samples.

Results

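Histamine and the eicosanoids are small lipid or amine mediators of allergic skin inflammation, and 10 genes that make or break them down were followed here: Hdc, Alox5, Alox5ap, Ltc4s, Ptgs1, Ptgs2, Ptges, Ptgds, Hpgds and Hpgd. They were chosen by name, and all 10 were found among the 32285 genes of the count tables. The samples were 6 single-cell RNA libraries (10x Genomics, 3′ chemistry) made from enzymatically digested skin of Balb/c mice. EC-SAL replicates 1 to 3 are labelled control, and EC-OVA replicates 1 to 3 are labelled OVA-sensitized. The labels give 10 days of sensitization through the skin for both groups, with skin taken 2 days later, but only EC-OVA is labelled OVA-sensitized. No mutant allele or other agent is named for either group. The labels also give the cell type as CD4, but the libraries held all major skin cells, and alpha-beta T-like cells were 29 of 13460 kept cells in EC-SAL and 121 of 10972 in EC-OVA. Nothing in the labels says whether a library is 1 mouse or a pool, so p-values measure only the spread between these libraries.

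Hdc makes histamine from the amino acid histidine and is the step that sets histamine synthesis in mast cells and basophils. Arachidonic acid freed from membranes enters the leukotriene branch through 5-lipoxygenase (Alox5), which needs its membrane partner FLAP (Alox5ap), and Ltc4s then couples the product to glutathione to form the first cysteinyl leukotriene. In the prostanoid branch the cyclooxygenases Ptgs1 (the steadily expressed form) and Ptgs2 (the inducible form) make prostaglandin H2, from which Ptges makes prostaglandin E2 and either Ptgds or Hpgds makes prostaglandin D2. Hpgd oxidizes prostaglandin E2 and related prostanoids to forms with little activity. These enzymes are shared out among different skin cells, so a tissue-level change can come from cells arriving or leaving as well as from a change within a cell type.

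The 24432 kept cells (13460 EC-SAL and 10972 EC-OVA) held 21743490 to 28049562 unique molecular identifiers (UMIs) per library. They were grouped by marker genes that include no member, and the members were kept out of the genes used for clustering. Levels below are CPM: UMIs of the gene per 1000000 UMIs of that cell class in that library. Changes are log2 ratios of EC-OVA over EC-SAL ± the standard error from edgeR's quasi-likelihood test on the summed UMIs, and a gene is called changed when its Benjamini-Hochberg adjusted p over all genes tested in that class is under 0.05. Class names such as basophil-like state only which marker genes are raised. Keratinocyte-like cells numbered 5222 in EC-SAL and 2364 in EC-OVA, dendritic and Langerhans-like cells numbered 247 and 455, macrophage and monocyte-like cells 486 and 736, and fibroblast-like cells 2676 and 3021.

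In the mm10 build, with GENCODE M21 genes, the members lie on several chromosomes. Hdc lies at chr2:126593667-126619299, Alox5 at chr6:116410077-116461178, Alox5ap at chr5:149264767-149288153 and Ltc4s at chr11:50236461-50238616. Ptgs1 lies at chr2:36230426-36252272, Ptgs2 at chr1:150100031-150108227, Ptges at chr2:30889471-30929863, Ptgds at chr2:25466709-25470046, Hpgds at chr6:65117293-65144908 and Hpgd at chr8:56294585-56321043. Ptges and Hpgd overlap the same-strand genes Gm13400 and Gm45540, so reads there are uncertain.

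The 250 bases before the start site are shown as examples for Hdc, the gene that makes histamine, and Ptgs2, the inducible cyclooxygenase, while Hpgd, which also rose over all cells and in fibroblasts, is not shown. They come from RefSeq (GRCm38.p6), at chr2:126618679-126618928 on the minus strand for Hdc and chr1:150099781-150100030 on the plus strand for Ptgs2. Both are written 5′ to 3′ toward the start site with pattern matches in capitals. The Hdc window lies within the GENCODE M21 span of Hdc given above, so RefSeq and GENCODE place its start differently.
Hdc: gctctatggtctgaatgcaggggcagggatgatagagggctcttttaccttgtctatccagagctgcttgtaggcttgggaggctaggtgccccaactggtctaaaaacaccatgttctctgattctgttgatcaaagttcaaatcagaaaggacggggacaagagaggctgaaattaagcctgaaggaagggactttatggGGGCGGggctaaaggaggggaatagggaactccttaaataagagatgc
Ptgs2: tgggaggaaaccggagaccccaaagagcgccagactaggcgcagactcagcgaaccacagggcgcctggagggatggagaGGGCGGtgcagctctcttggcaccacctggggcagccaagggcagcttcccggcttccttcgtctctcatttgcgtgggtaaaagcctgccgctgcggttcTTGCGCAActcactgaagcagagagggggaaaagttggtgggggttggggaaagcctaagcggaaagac
The capitals mark GGGCGG in both genes, at position -48 from the Hdc start and -170 from the Ptgs2 start, and in Ptgs2 also the palindrome TTGCGCAA at -69, a form bound by C/EBP factors. 7 patterns were searched on both strands of 300-base windows, 250 before and 50 after the start: the TATA box TATAAA, the GC box GGGCGG, the KLF-type pattern CCACCC, the E-box CACGTG, the CREB-type pattern CGTCA, the GATA-type pattern GATAA and the C/EBP-type palindrome TTGCGCAA. Of 32851 such windows, 35.7% held GGGCGG and 0.183% held TTGCGCAA. Among the 9 members with a window, TTGCGCAA was found in Ptgs2 alone and GGGCGG in 5. In Ptgs2 the CREB-type pattern CGTCA at +14 overlaps the E-box CACGTG at +17, both after the start site. A match describes letters, and binding was not measured.

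Over all kept cells 6 of the 10 members changed, 4 up and 2 down, beside 44.8% of all 14924 genes tested. Alox5ap stood at 21.9, 19.6 and 20.1 CPM in EC-SAL and 53.6, 50.8 and 48.0 CPM in EC-OVA, a log2 change of 1.25 ± 0.06 (adjusted p = 7.4e-06). Ptgs2 went from 28.5, 29.6 and 25.6 CPM to 59.7, 61.1 and 65.2 CPM (1.10 ± 0.06, adjusted p = 1.5e-05). Hpgd went from 13.7, 11.9 and 11.4 CPM to 25.8, 22.0 and 26.1 CPM (0.93 ± 0.07, adjusted p = 5.1e-05). In each of these genes the 3 EC-OVA libraries lay close together and well above every EC-SAL library. Hdc rose the most, from 3.102, 2.20 and 2.40 CPM to 13.4, 30.7 and 24.0 CPM, and its EC-OVA libraries were more spread out than in these 3 genes. Ptgs1 fell, from 52.2, 51.5 and 52.1 CPM to 42.4, 39.0 and 40.7 CPM (-0.41 ± 0.04, adjusted p = 0.00018). Ptges fell from 217, 202 and 199.9 CPM to 155, 140.2 and 169 CPM (-0.47 ± 0.06, adjusted p = 0.00039). Neither fall left any overlap between the groups.

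The other 4 members did not pass over all kept cells. Ptgds showed 28.0, 40.1 and 34.0 CPM in EC-SAL and 11.3, 10.3 and 35.2 CPM in EC-OVA (-0.91 ± 0.40, adjusted p = 0.097), with EC-OVA replicate 3 at the EC-SAL level. Leaving out that library, picked here for its value, gave a log2 change of -1.69, from which no fall is read. Alox5 (0.01 ± 0.27), Ltc4s (0.32 ± 0.21) and Hpgds (-0.29 ± 0.23) overlapped between the groups, with adjusted p of 0.97, 0.25 and 0.33.

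**Figure D1:**
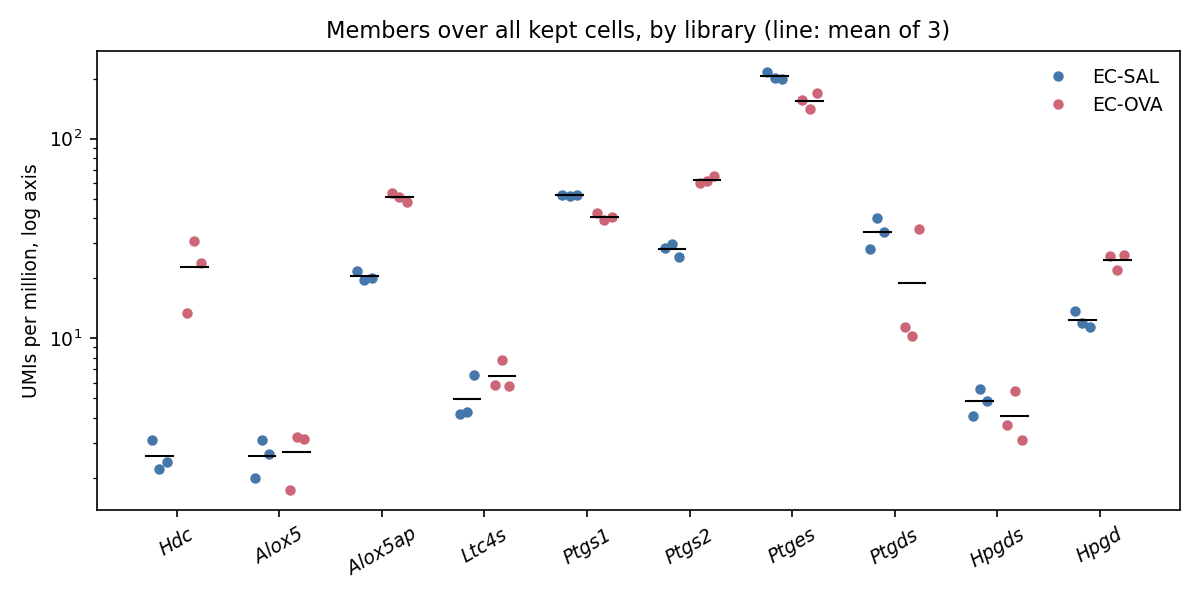
Level of each member over all kept cells (CPM, log axis) in each of 3 EC-SAL and 3 EC-OVA libraries, with the mean as a black line. Hdc, Alox5ap, Ptgs2 and Hpgd are higher in every EC-OVA library, Ptgs1 and Ptges are lower in every one, and the other 4 overlap.

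Each member had its own set of source cells. Hdc was highest in basophil-like and neutrophil-like cells and then in vascular endothelial-like cells. Alox5ap was found across the myeloid classes, and Alox5, Ltc4s, Hpgds and Ptgs1 had their highest dendritic-cell levels in Langerhans-like cells. Ptges was spread over keratinocytes, chondrocytes, pericytes and fibroblasts, Hpgd lay mainly in fibroblasts, and Ptgds in melanocytes. Ptgs2 levels stood out in fibroblasts, chondrocytes, type 2 dendritic cells and monocytes. Keratinocytes, with a lower Ptgs2 level, held 32.1% of its UMIs in EC-SAL and 11.7% in EC-OVA, beside 31.6% and 44.0% in fibroblasts. Lymphoid cells held hardly any: no member reached 20 CPM there when the 3 libraries of a group were summed. Within the 13 classes with at least 10 cells in every library, 34 of the 130 combinations of member and class had enough UMIs to be tested. Of these, 15 were called, 8 up and 7 down, beside 2.97% of all 86523 gene by class tests, and the other 96 combinations were too low to test. One of the 8 rises, Ltc4s in vascular cells, passed the filter on low counts only through the EC-OVA libraries and so had to differ. That leaves 7 rises, of which the lymphatic Ltc4s rise carries the limit given next. For some other calls the lower group alone would not have passed this filter, since not each of its libraries reached the level. These were Ltc4s and Alox5 in macrophage and monocyte-like cells, Hpgds and Ptgs1 in dendritic and Langerhans-like cells, and Ltc4s in lymphatic cells. Of the 13 calls in classes of several clusters, 3 were kept when the cluster mix was held at that of EC-SAL: Hpgd and Ptgs2 in fibroblasts and the vascular Ltc4s call. The other 2 calls are in classes of 1 cluster, lymphatic and chondrocyte. No member was called in pericytes with smooth muscle (1 tested, 3.77% of genes called), tendon and perichondrium (2 tested, 0.56%), sebocytes (1 tested, 0.594%) or hair matrix (1 tested, 0.0138%), and none could be tested in Schwann (0.163%) or lymphoid cells (1.61%). Among finer clusters none of 2 was called in type 2 dendritic cells (1.3%), of 4 in basal keratinocytes (0.0954%) or of 2 in dermal sheath (1.07%).

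**Figure D2:**
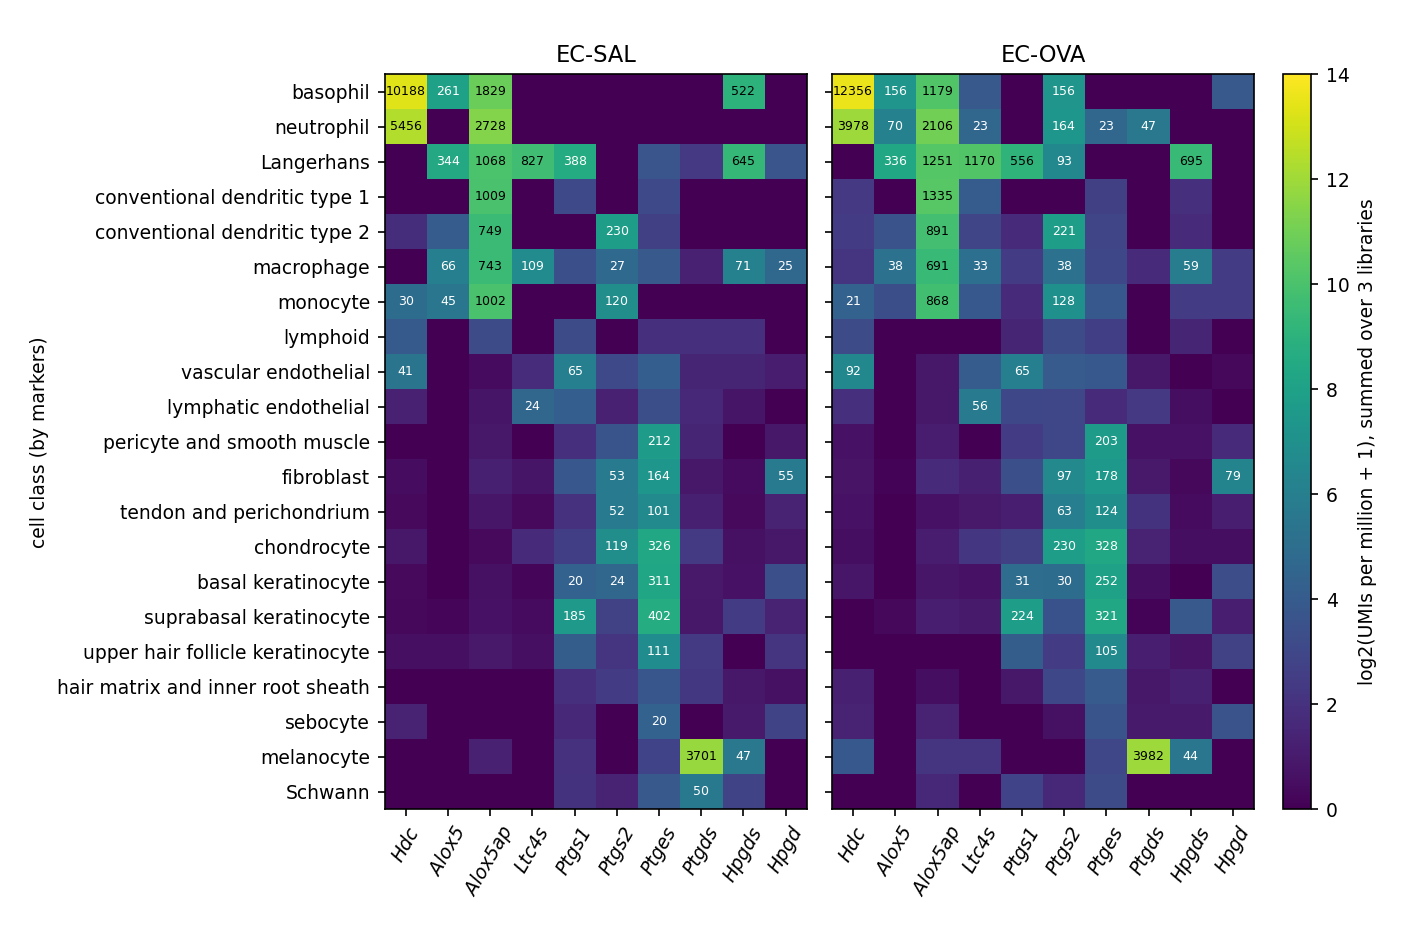
Level of each member in each cell class, as log2(CPM + 1) with the 3 libraries of a group summed. Numbers are CPM where at least 20, such as 3701 for Ptgds in EC-SAL melanocyte-like cells and 92 for Hdc in EC-OVA vascular endothelial-like cells.

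**Figure D3:**
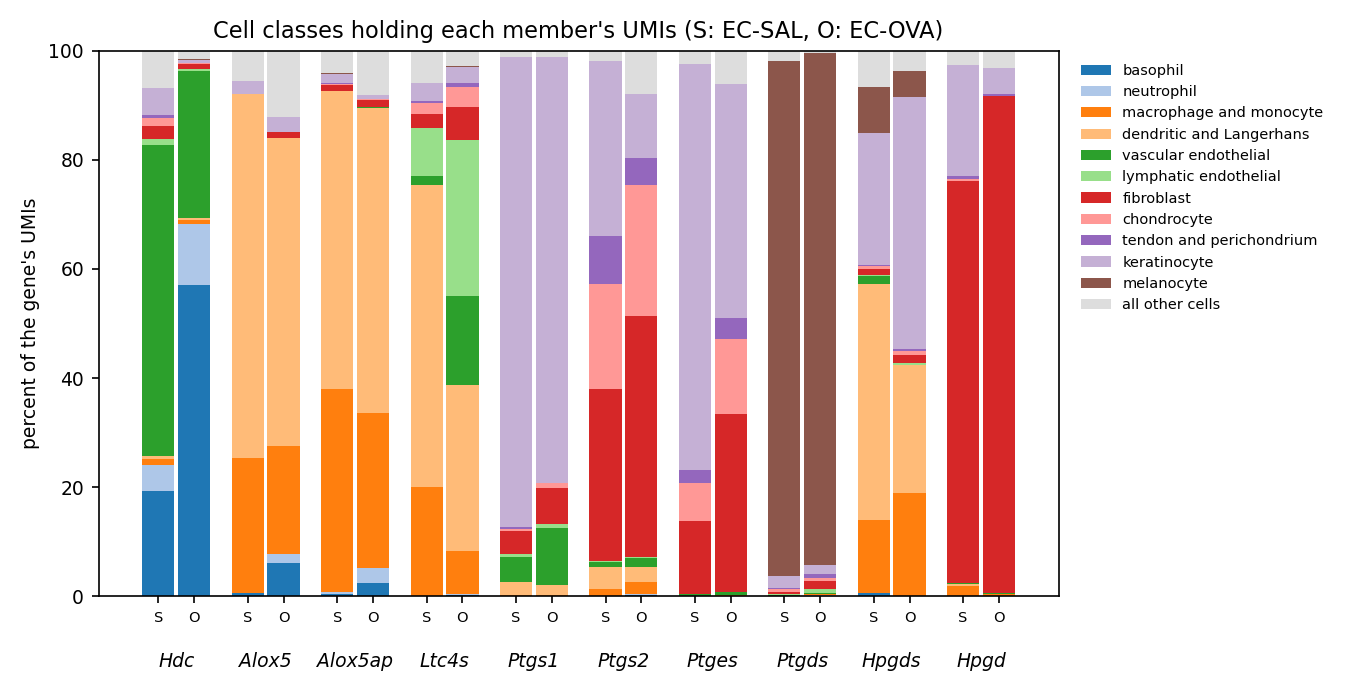
Percent of each member's UMIs held by each cell class, summed over the 3 libraries of a group (S: EC-SAL, O: EC-OVA). The basophil-like class holds 19.2% of Hdc UMIs in EC-SAL and 57.0% in EC-OVA, and the melanocyte-like class holds most Ptgds UMIs in both groups.

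Basophil-like, neutrophil-like and vascular endothelial-like cells held most Hdc. The mean share of Hdc UMIs in the vascular endothelial-like class was 56.6% ± 4.65 (SD, n = 3) in EC-SAL and 29.9% ± 11.03 (SD, n = 3) in EC-OVA, with no overlap (two-sided exact permutation p = 0.1, the smallest that 3 against 3 allows). The basophil-like class held 18.9% ± 11.4 (SD, n = 3) and 51.3% ± 21.7 (SD, n = 3), which overlapped (exact permutation p = 0.2). That class had 3 EC-SAL cells, 1 per library, and 8, 25 and 13 EC-OVA cells. The class is too small in EC-SAL for a test, and its Hdc level was 8952, 7220.2 and 13091 CPM in EC-SAL and 8089.7, 12925 and 13368 CPM in EC-OVA.

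After the values were seen, the class was split by Cma1, the chymase of connective tissue mast cells. Of the 3 EC-SAL cells, 2 had Cma1 together with the mast cell proteases Mcpt4 (36 UMIs) and Tpsb2 (32 UMIs), and the other had neither Cma1 nor Mcpt8, the basophil protease. That cell had no Mcpt4 or Tpsb2 UMI either among 1899 UMIs, with 17 Hdc, 7 Alox5ap, 1 Alox5 and 2 Il13 UMIs. Of the 46 EC-OVA cells, 44 had no Cma1, and 39 of those 44 had Mcpt8. The 44 cells held 824 Hdc UMIs (12797 CPM), between 1 and 43 a cell with a median of 15. They also held 83 Alox5ap, 10 Alox5 and 11 Ptgs2 UMIs, and no Ltc4s or Hpgds UMI. The cytokines Il4 and Il13 had 78 and 256 UMIs in the same cells.

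Neutrophil-like cells were a further Hdc source of EC-OVA skin. They numbered 3 in EC-SAL and 62 in EC-OVA, where Hdc stood at 4519, 3574 and 3846 CPM and 48 of the 62 cells had an Hdc UMI. None of these 62 cells had an Mcpt8 UMI. These cells held 10 Hdc UMIs in EC-SAL and 170 in EC-OVA. Neutrophil-like cells were also high in Alox5ap, at 2757, 1918 and 1758 CPM in the 3 EC-OVA libraries.

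Within vascular endothelial-like cells Hdc rose too. The level was 51.5, 31.8 and 38.5 CPM in EC-SAL and 82.7, 91.4 and 104 CPM in EC-OVA, with every EC-OVA library above every EC-SAL one (1.15 ± 0.17, adjusted p = 0.0011). Among vascular genes tested, 2.95% were called. The share of these cells with an Hdc UMI was 9.04% in EC-SAL and 20.5% in EC-OVA, at median depths of 3312 and 5019 UMIs a cell. After every cell was thinned to 1000 UMIs, leaving out 60 and 33 shallower cells, the shares were 3.14% and 7.52%. In keratinocyte-like cells, taken as the background, 0.172% and 0.169% of cells had an Hdc UMI at median depths of 7282.5 and 7658 UMIs.

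Most of the vascular Hdc UMIs, 98 of 116 in EC-SAL and 385 of 412 in EC-OVA, lay in 1 of 2 endothelial clusters. The cluster led by Selp and Ackr1, genes of venules, had 110.0, 72.9 and 68.8 CPM in EC-SAL and 125, 171 and 193 CPM in EC-OVA (0.87 ± 0.21, adjusted p = 0.031, beside 2.02% of its genes called). The cluster led by Gpihbp1 and Fabp4, genes of capillaries, had 9.98, 4.93 and 18.5 CPM in EC-SAL and 3.78, 18.3 and 14.4 CPM in EC-OVA, too low to test. The venule-type cluster had 228 cells in EC-SAL and 371 in EC-OVA, and the capillary-type cluster 469 and 393. With the EC-SAL mix of the pair held fixed, the class-wide change was 0.81 and did not pass (adjusted p = 0.061). The basophil genes Mcpt8, Prss34 and Cd200r3 had 0, 0 and 0 UMIs in EC-SAL vascular cells and 1, 0 and 0 in EC-OVA ones, beside 116 and 412 Hdc UMIs. In the venule-type cluster the summed level of all 8 basophil markers, which include Gata2 and Il3ra, was 28.2 to 51.5 CPM in EC-SAL and 59.0 to 80.4 CPM in EC-OVA, and that of 9 mast cell markers 4.68 to 12.6 CPM and 9.37 to 25.5 CPM. The part of these cells' RNA in the Hdc rise was not tested. In that cluster the mast cell genes Cma1, Cpa3, Tpsb2 and Mcpt4 had 2, 0, 1 and 0 UMIs in EC-SAL and 2, 0, 1 and 1 in EC-OVA. The neutrophil gene S100a9 went from 1 to 21 UMIs in all vascular cells, but only from 0 to 2 in the venule-type cluster. Neutrophil-like EC-OVA cells had 1266 S100a9 beside 170 Hdc UMIs, and the part of their RNA was not tested either.

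Alox5ap, the 5-lipoxygenase partner, was 2.38-fold higher over all cells but did not pass in either class that holds most of it. In dendritic and Langerhans-like cells it stood at 938, 851 and 761 CPM in EC-SAL and 1023, 905 and 932 CPM in EC-OVA (0.12 ± 0.12, adjusted p = 0.61). In macrophage and monocyte-like cells it stood at 878, 716 and 696 CPM and at 788, 705 and 766 CPM (-0.04 ± 0.13, adjusted p = 0.90). The groups overlapped in both classes. Type 1 conventional dendritic-like cells held 8.33% ± 4.36 of all Alox5ap UMIs in EC-SAL and 29.8% ± 1.35 in EC-OVA (SD, n = 3 each), and monocyte-like cells 4.09% ± 0.87 and 11.2% ± 0.87 (exact permutation p = 0.1 for both). Those cells numbered 31 and 114 for the type 1 dendritic cells, and 26 and 180 for the monocytes. Migratory dendritic-like cells, marked by Ccr7 and Fscn1, had little of it, with 2 Alox5ap UMIs in 9 EC-SAL cells and 4 in 30 EC-OVA cells.

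Alox5, the 5-lipoxygenase itself, fell within both myeloid classes. In dendritic and Langerhans-like cells it went from 111, 161 and 116 CPM to 23.0, 62.2 and 67.0 CPM (-1.39 ± 0.30, adjusted p = 0.0090). In this class 4 of the 6 members tested fell and none rose, beside 10.9% of genes called. The finer clusters showed where Alox5 sat. Langerhans-like cells, the Cd207 dendritic cells of the epidermis, had 282, 340.1 and 412 CPM in EC-SAL and 143, 396 and 404 CPM in EC-OVA. An unnamed dendritic cluster led by Dusp14 and Cd209e had 162, 196 and 122 CPM and 62.3, 154 and 174 CPM. Type 1 dendritic-like cells had no Alox5 UMI in either group. The Langerhans-like cells numbered 49 in EC-SAL and 20 in EC-OVA. With the 4 dendritic clusters held at their EC-SAL mix, the Alox5 change was -0.23 (adjusted p = 0.88), and without EC-SAL replicate 2 the adjusted p was 0.055.

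In macrophage and monocyte-like cells Alox5 went from 47.7, 87.4 and 59.2 CPM to 38.7, 17.6 and 28.5 CPM (-1.21 ± 0.34, adjusted p = 0.021), and 2 of the 5 members tested there fell, beside 11.1% of genes called. These are 50 and 36 UMIs in all, and not every EC-OVA library reached the level of the filter on low counts. The call was lost without EC-SAL replicate 2, EC-SAL replicate 3 or EC-OVA replicate 2, with adjusted p up to 0.19, with DESeq2, and at the EC-SAL cluster mix (-0.87, adjusted p = 0.33). In the macrophage-like cells alone it was -0.80 ± 0.36 (adjusted p = 0.23).

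Ltc4s, which makes leukotriene C4, fell in macrophage-like cells. In macrophage-like cells it went from 97.8, 94.6 and 133 CPM to 19.2, 36.5 and 41.8 CPM (-1.72 ± 0.31, adjusted p = 0.0019), with no overlap and 5.94% of macrophage genes called. With monocytes included, where not every EC-OVA library reached the filter level, the change was -1.92 ± 0.32 (adjusted p = 0.00019). At the EC-SAL mix of the 4 macrophage and monocyte clusters it was -1.08 and did not pass (adjusted p = 0.096). In the macrophage cluster L1, led by Pf4 and Ccl8, Ltc4s went from 98.9, 88.4 and 107 CPM to 52.0, 28.2 and 19.4 CPM. The groups overlapped in the other macrophage clusters, at 135, 163 and 308 CPM against 0, 137 and 272 CPM in cluster L9 and at 50.9, 46.1 and 0 CPM against 6.54, 24.9 and 6.61 CPM in cluster L2. The summed level of 8 macrophage markers in macrophage-like cells ranged from 12115 to 12421 CPM in EC-SAL and from 8674 to 10112 CPM in EC-OVA, and that of 9 neutrophil markers from 24.4 to 36.04 CPM and from 66.1 to 558 CPM. Their part in the Ltc4s result was not tested.

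Langerhans-like cells had the highest Ltc4s level, at 858, 651 and 1036 CPM in EC-SAL and 1287, 1169.7 and 970.2 CPM in EC-OVA. The EC-OVA values rest on 5, 10 and 5 cells, too few to test. Over the whole dendritic and Langerhans-like class Ltc4s fell from 189, 195 and 238 CPM to 58.3, 96.6 and 35.2 CPM (-1.72 ± 0.27, adjusted p = 0.0012). At the EC-SAL cluster mix the same change was 0.41 in the other direction (adjusted p = 0.57).

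In lymphatic endothelial-like cells Ltc4s passed the test, but not in every alternative. These cells had 15.7, 21.8 and 36.3 CPM in EC-SAL and 60.9, 48.6 and 57.6 CPM in EC-OVA (1.21 ± 0.27, adjusted p = 0.036), beside 1.13% of their genes called. Not every EC-SAL library reached the filter level there. DESeq2 gave an adjusted p of 0.20, the call was also lost with doublets kept (adjusted p = 0.054), and it was lost when any of EC-SAL replicates 1 or 2 or EC-OVA replicates 1 or 3 was left out. Vascular endothelial-like cells had 1.94, 0.994 and 4.96 CPM in EC-SAL and 15.2, 20.4 and 11.5 CPM in EC-OVA, or 7 against 71 UMIs. These vascular values are given as a description with no test, since Ltc4s passed the filter there only through EC-OVA. Ltc4s had 2 UMIs in EC-SAL and 36 in EC-OVA in the venule-type cluster, and in the capillary-type cluster the level was 3.33, 0 and 6.17 CPM in EC-SAL and 18.9, 22.0 and 10.1 CPM in EC-OVA. The lymphatic class held 8.71% ± 1.68 of Ltc4s UMIs in EC-SAL and 29.9% ± 11.4 in EC-OVA (SD, n = 3 each), and the vascular class 1.69% ± 0.77 and 16.1% ± 2.97. In vascular cells the 12 macrophage and monocyte markers summed to 14.6 to 16.1 CPM in EC-SAL and to 5.75 to 12.8 CPM in EC-OVA. In lymphatic cells the same 12 markers summed to 11.8 to 29.0 CPM in EC-SAL and to 19.9 to 56.2 CPM in EC-OVA, and the part of these markers in the Ltc4s values was not tested. The share of vascular cells with an Ltc4s UMI was 1.004% and 5.37%, or 0.314% (2 of 637 cells) and 0.821% (6 of 731) after thinning to 1000 UMIs and 0.287% (2 of 697) and 0.262% (2 of 764) at 500 UMIs, beside an unthinned keratinocyte background of 0.249% and 0.465%. In lymphatic cells the share was 8.47% and 19.7% unthinned, 2.35% and 5.59% at 1000 UMIs, and 1.91% (7 of 366) and 1.71% (6 of 351) at 500 UMIs. No change is read from the thinned shares.

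Ptgs1, the steadily expressed cyclooxygenase, rose slightly within keratinocytes although it fell over all cells. Suprabasal keratinocyte-like cells, the differentiating epidermal layers, had 190.2, 183 and 183 CPM in EC-SAL and 232, 222 and 219 CPM in EC-OVA (0.33 ± 0.06, adjusted p = 0.030), beside 1.2% of their genes called. All keratinocyte-like cells together had 84.4, 81.1 and 83.8 CPM and 101, 95.2 and 103 CPM. Their change was 0.27 ± 0.05 (adjusted p = 0.026), and 3 of the 6 members tested there changed, beside 3.22% of genes. The keratinocyte call was lost in 5 of the 6 fits that left out 1 library, where the adjusted p reached 0.11, all but the one without EC-OVA replicate 2, with library totals in place of TMM scaling, and at the EC-SAL cluster mix (0.26, adjusted p = 0.10). Keratinocytes held 86.2% ± 1.71 of Ptgs1 UMIs in EC-SAL and 78.0% ± 3.33 in EC-OVA (SD, n = 3 each), and there were fewer of them in EC-OVA.

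Besides keratinocytes, Ptgs1 was found in venule-type cells, Langerhans-like cells and fibroblasts. The Selp and Ackr1 cluster had 126, 126 and 144 CPM in EC-SAL and 89.6, 138 and 107 CPM in EC-OVA, which overlapped (-0.30 ± 0.18, adjusted p = 0.57). Langerhans-like cells had 335, 437 and 372 CPM and 572, 623 and 243 CPM. Over the whole dendritic and Langerhans-like class Ptgs1 fell from 75.7, 132 and 81.3 CPM to 19.9, 43.7 and 5.03 CPM (-2.03 ± 0.43, adjusted p = 0.0079), while at the EC-SAL cluster mix the value was 0.27 (adjusted p = 0.86). This fall was also not called with DESeq2, and not every EC-OVA library reached the filter level.

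Ptgs2, the inducible cyclooxygenase, rose within connective tissue cells. Fibroblast-like cells had 49.4, 64.9 and 44.9 CPM in EC-SAL and 88.7, 102 and 99.3 CPM in EC-OVA (0.89 ± 0.13, adjusted p = 0.0019). Reticular fibroblast-like cells, marked by Pi16 and Dpp4, had the highest fibroblast level, at 108, 122 and 81.5 CPM and 166, 186 and 192 CPM (0.81 ± 0.12, adjusted p = 0.0015). A second fibroblast cluster, led by Wfdc12 and Cpz, showed 35.9, 52.1 and 47.8 CPM and 72.5, 89.2 and 92.8 CPM (0.93 ± 0.15, adjusted p = 0.0021). In all 3 settings every EC-OVA library lay above every EC-SAL one. Called genes were 4.71% of those tested in fibroblasts as a whole, 3.74% in the reticular cells and 2.97% in the Wfdc12 cluster. The fibroblast call was kept in every alternative tried, including a fixed cluster mix (0.84).

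Chondrocyte-like cells (cartilage cells) showed a similar size of Ptgs2 change. Their level was 125, 132 and 101 CPM in EC-SAL and 240.0, 176 and 275 CPM in EC-OVA (0.96 ± 0.15, adjusted p = 0.0043), beside 1.35% of genes called. Without EC-SAL replicate 3 the adjusted p was 0.051. The share of chondrocyte-like cells with a Ptgs2 UMI was 17.5% in EC-SAL and 29.5% in EC-OVA, at median depths of 3684 and 4400.5 UMIs. Tendon and perichondrium-like cells did not pass, at 47.1, 53.9 and 54.6 CPM and 47.3, 74.3 and 63.2 CPM (0.28 ± 0.17, adjusted p = 0.66).

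Among leukocytes Ptgs2 was found in type 2 conventional dendritic-like cells, at 203, 202 and 287 CPM in EC-SAL and 213, 240.4 and 201 CPM in EC-OVA, with full overlap (-0.12 ± 0.23, adjusted p = 0.86). Monocyte-like cells had 261, 54.4 and 0 CPM in EC-SAL, from 8 UMIs in all, and 138, 84.9 and 165 CPM in EC-OVA. Neutrophil-like and basophil-like cells, few in number, had 7 and 11 Ptgs2 UMIs in EC-OVA and 0 in EC-SAL. Unnamed cells of all kinds had 89.2, 7.15 and 8.11 CPM in EC-SAL and 156, 159 and 164 CPM in EC-OVA, or 10 against 298 UMIs. The macrophage and monocyte-like class as a whole missed the threshold (0.96 ± 0.32, adjusted p = 0.053). Keratinocyte-like cells went from 17.9, 16.2 and 15.7 CPM to 27.2, 18.4 and 22.4 CPM and also missed it (0.45 ± 0.11, adjusted p = 0.061).

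Ptges, the inducible prostaglandin E synthase, fell in keratinocyte-like cells and rose in reticular fibroblast-like cells. Keratinocyte-like cells had 306, 279 and 269 CPM in EC-SAL and 209, 188 and 230.3 CPM in EC-OVA (-0.45 ± 0.07, adjusted p = 0.010). The call was lost without EC-SAL replicate 1 or 3 (adjusted p up to 0.057). The suprabasal cells had 425, 416 and 365 CPM and 342, 282 and 336 CPM, groups that did not overlap but missed the threshold (-0.28 ± 0.08, adjusted p = 0.12). Basal cells, which bear Krt5 and Krt14, had 343, 284 and 302 CPM and 247, 244 and 268 CPM (-0.27 ± 0.08, adjusted p = 0.26). At the EC-SAL mix of keratinocyte clusters the class-wide change was -0.26 (adjusted p = 0.093).

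Reticular fibroblast-like cells went the other way, from 200.04, 188 and 184 CPM of Ptges to 253, 217 and 255 CPM (0.35 ± 0.09, adjusted p = 0.036). Fibroblasts as a whole did not pass (0.15 ± 0.06, adjusted p = 0.25). Chondrocyte-like cells stayed among the highest Ptges levels, at 314, 308 and 355 CPM and 325, 293 and 367 CPM (0.03 ± 0.10, adjusted p = 0.94). Pericytes with smooth muscle had 203, 230.3 and 207 CPM and 217, 181 and 211 CPM (-0.11 ± 0.14, adjusted p = 0.78). The share of Ptges UMIs held by keratinocytes fell from 74.3% ± 1.40 to 42.8% ± 2.11, and that of fibroblasts was 13.2% ± 0.28 and 32.6% ± 2.17 (SD, n = 3 each, exact permutation p = 0.1 for both).

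Ptgds, the lipocalin-type prostaglandin D synthase, came nearly all from melanocyte-like cells, which held 94.0% ± 4.44 of its UMIs in EC-SAL and 91.3% ± 5.75 in EC-OVA (SD, n = 3 each). Those cells numbered 28, 34 and 37 in EC-SAL and 22, 5 and 24 in EC-OVA, so EC-OVA replicate 2 was too sparse for a test. Their Ptgds level was 4186, 3934 and 3158 CPM and 1858, 7104 and 5032 CPM, and the groups overlapped. Schwann-like cells had 32 Ptgds UMIs in EC-SAL, 130.3, 10.5 and 4.32 CPM by library, and none in EC-OVA. Most of them came from EC-SAL replicate 1. The 7 melanocyte markers summed to between 34.6 and 368 CPM in the EC-SAL Schwann-like cells and to between 34.2 and 108 CPM in the EC-OVA ones, and their part in the Ptgds values was not tested.

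Hpgds, the hematopoietic prostaglandin D synthase, had its highest level in Langerhans-like cells. Langerhans-like cells had 509.6, 768 and 611 CPM in EC-SAL and 858, 755 and 162 CPM in EC-OVA, while type 1, type 2 and migratory dendritic-like cells had 0, 0 and 0 UMIs in EC-SAL and 2, 1 and 0 in EC-OVA. Macrophage-like cells had 69.3, 72.1 and 72.4 CPM and 72.8, 46.5 and 59.2 CPM, which overlapped (-0.28 ± 0.27, adjusted p = 0.65). Over the whole dendritic and Langerhans-like class Hpgds fell from 111, 226 and 134 CPM to 29.1, 55.6 and 5.03 CPM (-2.36 ± 0.44, adjusted p = 0.0036). This fall was not called with DESeq2, and at the EC-SAL cluster mix the value was -0.11 (adjusted p = 0.97). For Hpgds there, not every EC-OVA library reached the filter level.

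Suprabasal keratinocyte-like cells, where Hpgds was low, showed a rise from 5.94, 3.90 and 4.05 CPM to 10.8, 22.2 and 10.3 CPM (1.66 ± 0.32, adjusted p = 0.033). All keratinocyte-like cells together had 2.79, 1.91 and 1.69 CPM and 4.44, 8.60 and 4.95 CPM. Their change was 1.48 ± 0.30 (adjusted p = 0.027) and was lost in 5 of the 6 fits without 1 library, all but the one without EC-OVA replicate 1, and at the EC-SAL cluster mix (1.43, adjusted p = 0.12). The share of keratinocyte-like cells with an Hpgds UMI was 0.938% in EC-SAL and 2.24% in EC-OVA, at median depths of 7282.5 and 7658 UMIs. In the suprabasal cells 13 dendritic and Langerhans markers summed to between 4.40 and 5.11 CPM in EC-SAL and to between 7.30 and 16.3 CPM in EC-OVA. Their part in the Hpgds rise was not tested.

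Hpgd, which inactivates prostaglandins, rose within fibroblasts. The class had 61.7, 51.7 and 50.1 CPM in EC-SAL and 89.2, 70.1 and 80.4 CPM in EC-OVA, with no overlap (0.57 ± 0.09, adjusted p = 0.0035). This call was kept in every alternative tried. The Wfdc12 and Cpz cluster had 74.1, 55.3 and 67.4 CPM and 119, 84.8 and 108 CPM (0.66 ± 0.13, adjusted p = 0.011), and reticular cells 55.7, 46.2 and 31.3 CPM and 87.4, 61.5 and 66.2 CPM (0.68 ± 0.17, adjusted p = 0.041). Dermal sheath-like cells, which surround the hair follicle, did not pass (0.29 ± 0.14, adjusted p = 0.50). Fibroblasts held 73.2% ± 4.53 of Hpgd UMIs in EC-SAL and 91.2% ± 3.04 in EC-OVA (SD, n = 3 each). Ptgs2 and Hpgd, a prostaglandin-making and a prostaglandin-inactivating gene, were thus both higher in the fibroblast-like cells of all 3 EC-OVA libraries. In macrophage and monocyte-like cells Hpgd had 18 UMIs in EC-SAL and 6 in EC-OVA, too few for the test.

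**Figure D4:**
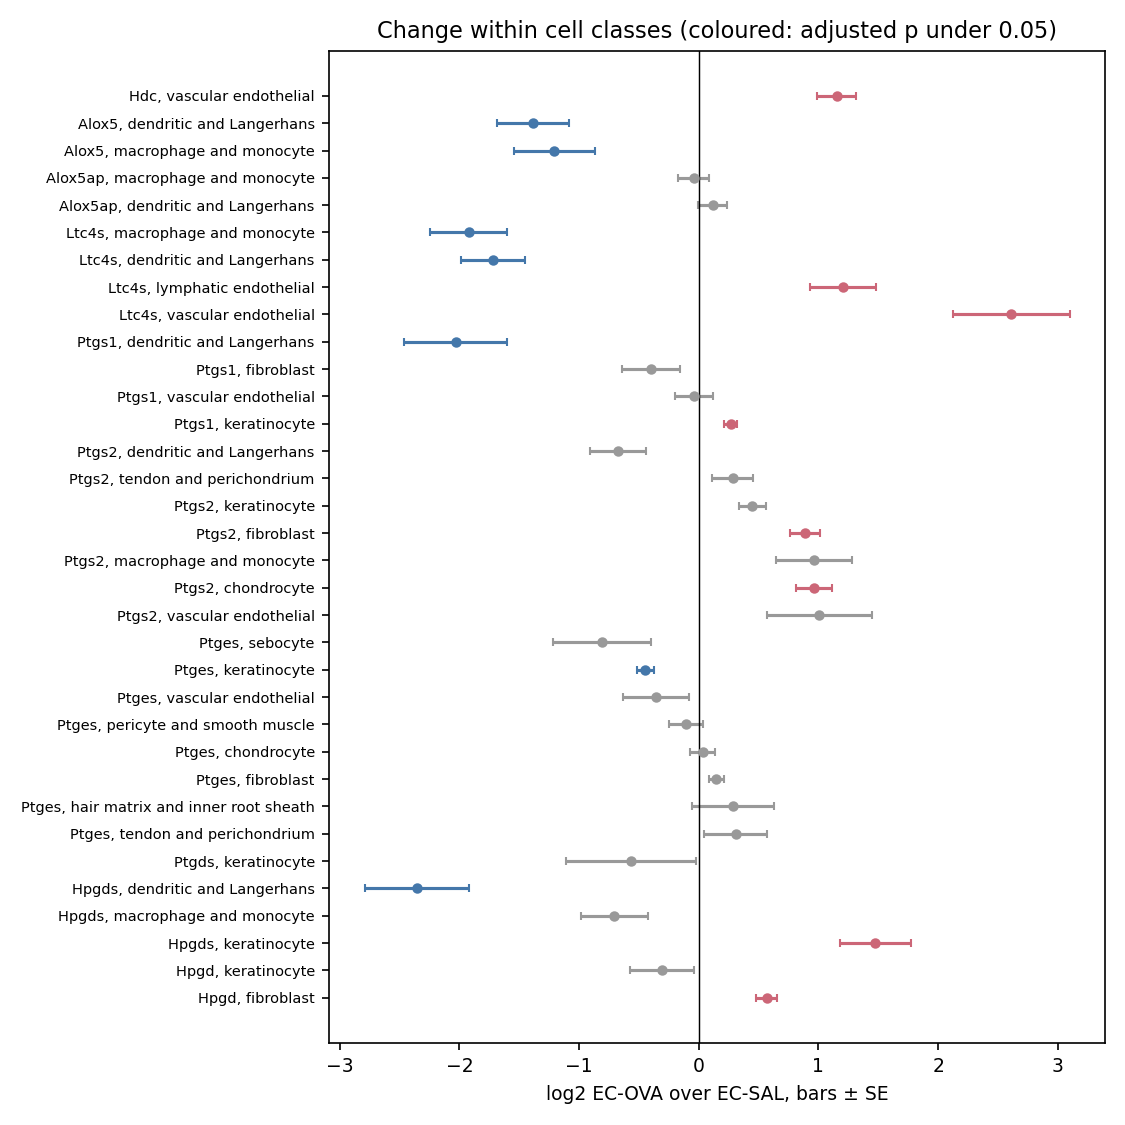
Log2 change of EC-OVA over EC-SAL ± SE for the 34 combinations of member and cell class with enough UMIs to test, coloured where the adjusted p is under 0.05 (red up, blue down, grey not called). The 7 falls are 6 in the 2 myeloid classes and Ptges in keratinocytes, while the 8 rises lie in endothelial, fibroblast, chondrocyte and keratinocyte classes. The vascular Ltc4s rise passed the filter only through EC-OVA and is not read as a result.

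The change of a class was also tested against that of all other kept cells, whose own mix changed. Of 130 combinations 23 differed, 8 higher and 15 lower, beside 5.39% of 185275 tests over all genes. The log2 change of Ltc4s was higher in lymphatic cells (1.24) than in all other kept cells together. It was also higher in vascular cells (2.43), where Ltc4s passed the class filter only through EC-OVA. It was lower in macrophage and monocyte-like cells (-2.41) and in dendritic and Langerhans-like cells (-2.78). The lymphatic difference was lost without the pair of libraries numbered 1 or 3 (adjusted p up to 0.44). Hpgd changed more in fibroblasts (0.98), a difference lost without the pair numbered 2 (adjusted p = 0.051). Hdc changed less in vascular cells (-2.71), where the other cells include the basophil-like and neutrophil-like ones. Ptgs2 was not called by this test in fibroblasts or chondrocytes.

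Each member's ratio was also computed with the mix of the 13 classes held at the EC-SAL shares. The value depends on the shares used, and the cluster mix within classes also differed. The basophil-like, neutrophil-like, melanocyte-like, muscle and unnamed cells are outside these 13 classes. With the mix as found, the log2 ratio of Alox5ap over these classes was 1.21, and with the mix fixed it was 0.12. Ptgs1 went from -0.32 as found to 0.19 fixed, a change of sign, though at the EC-OVA shares it was 0.06 and the groups overlapped. Hpgd went from 1.006 to 0.37. Ptgs2 kept 0.67 of 1.07, Hdc 1.07 of 1.92 and Ptges -0.29 of -0.41. Alox5 was -0.14 as found and -1.14 with the mix fixed. Ltc4s was 0.44 as found and -0.44 fixed, while Hpgds was -0.11 as found, 0.02 fixed at EC-SAL shares and -0.88 at EC-OVA shares. With 3 libraries a group the exact permutation test cannot go below 0.1 for any of them.

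**Figure D5:**
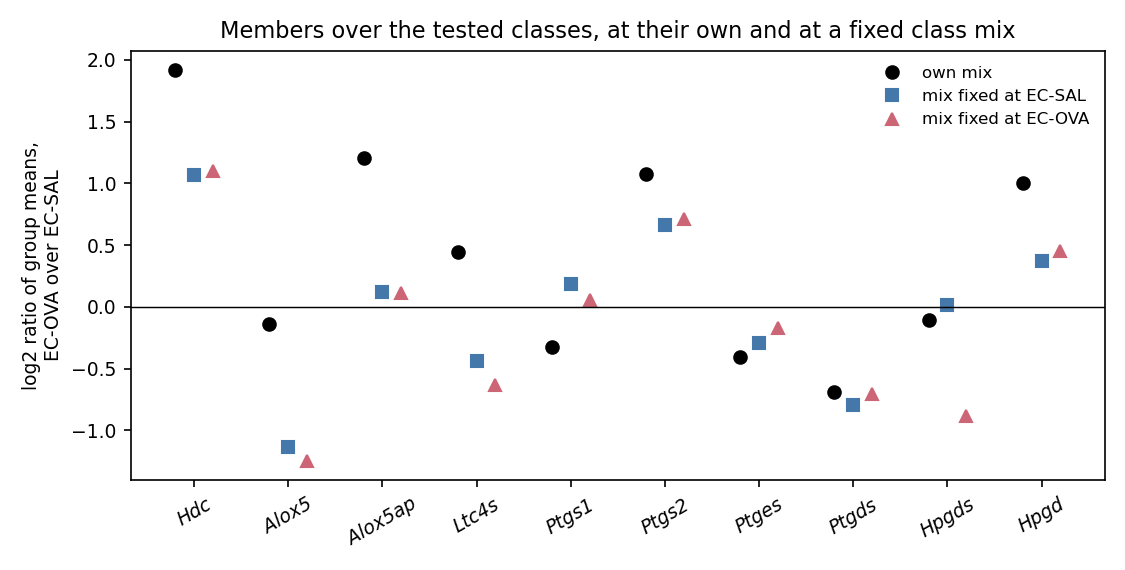
Log2 ratio of the EC-OVA to the EC-SAL mean over the 13 tested classes, with each library's own class mix (black circles) and with the mix fixed at the EC-SAL (blue squares) or EC-OVA (red triangles) shares. Alox5ap drops from 1.21 to 0.12 and Ptgs1 changes sign from -0.32 to 0.19 when the mix is fixed at EC-SAL. At EC-OVA shares Ptgs1 is 0.06 and Hpgds -0.88.

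The wider pathway was read from 7 lists with 69 genes, of which 68 were found. Over all kept cells 56 were tested, 20 rose and 18 fell, beside 44.8% of all genes tested. Eicosanoid receptors had 8 rises and 2 falls among 14 tested. They were led by the prostaglandin E2 receptor Ptger2 (1.34 ± 0.38, adjusted p = 0.022) and the cysteinyl leukotriene receptor Cysltr2 (1.33 ± 0.24, adjusted p = 0.0028). For Ptger2 not every EC-SAL library reached the level of the filter on low counts. Fpr2, counted among these rises, passed that filter only through EC-OVA and so had to differ. Substrate release had 2 rises and 6 falls among 12, led by the phospholipase Pla2g4f (-0.98 ± 0.14). Other lipoxygenase and leukotriene enzymes had 5 rises and 4 falls among 11. Of these rises, Cyp4f18, an enzyme that breaks down leukotriene B4, and Alox15 passed the filter only through EC-OVA and so had to differ. Cyp4f18 had 0.285, 0.275 and 0 CPM in EC-SAL and 1.43, 2.13 and 3.54 CPM in EC-OVA. Alox15 had 0.143, 0.0393 and 0.280 CPM and 0.583, 1.001 and 0.828 CPM, and no test is read for either. The other prostanoid synthases had 3 rises and 3 falls among 9, among them the thromboxane synthase Tbxas1 (1.29 ± 0.35). For Tbxas1 not every EC-SAL library reached the filter level. The export and breakdown list had 1 rise, the prostaglandin transporter Slco2a1 (0.50 ± 0.07), and 3 falls among 7. Of the histamine receptors Hrh1 was tested and rose (0.88 ± 0.17), and neither tested gene of histamine storage and breakdown passed.

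Within the 13 classes 8 of 230 tests of these pathway genes were called, 6 up and 2 down, beside 2.97% of all gene by class tests, so nothing particular to these genes is read from the count. Among the 6 rises, Cysltr2 in pericyte and smooth muscle-like cells passed the filter on low counts only through EC-OVA and so had to differ. Its level was 9.43, 9.09 and 10.4 CPM in EC-SAL and 46.0, 35.9 and 39.9 CPM in EC-OVA. These values are given as a description with no test. The aldo-keto reductase gene Akr1b8 rose in vascular (1.74 ± 0.28) and fibroblast-like cells (0.45 ± 0.08). For vascular Akr1b8 not every EC-SAL library reached the filter level. Akr1c18 rose in keratinocyte-like cells, from 292, 273 and 241 CPM to 635, 541 and 455 CPM. Mgst3, a microsomal glutathione transferase related to Ltc4s, fell in macrophage and monocyte-like cells, the class where Ltc4s fell, from 143, 171 and 137 CPM to 67.7, 59.4 and 71.4 CPM (-1.20 ± 0.21, adjusted p = 0.00027). The others were Ptgr1 up in fibroblasts, Prxl2b up in sebocytes and Mgll down in keratinocytes.

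The genes most like each member in pattern over 17 classes were found by Pearson correlation of log2(CPM + 1), as a description over classes that share libraries and depth. Alox5 was closest to Btk and Alox5ap (r = 0.99 each), and Alox5ap to the myeloid factor gene Spi1 (r = 0.99). Hdc was closest to Trim14 and Cyp4f18 (r = 0.92 each). Trim14 was highest in neutrophil-like cells, at 22.4 CPM, the level that 1 Ltc4s UMI gave there. Ltc4s was closest to Cd14 (r = 0.84) and Cd74 (r = 0.83), and Hpgds to Hvcn1 (r = 0.84) and Cd86 (r = 0.82). Ptges was closest to Errfi1 (r = 0.87), Ptgs2 to Stx11 (r = 0.84) and Ptgds to Gpr143 (r = 0.90), a melanosome gene. Ptgs1 was closest to Slc27a3 (r = 0.79), and Hpgd to Ptger3 (r = 0.70), a receptor for prostaglandin E2. Ptger3 was highest in basophil-like cells, at 40.4 CPM, where 1 Hpgd UMI gave 13.5 CPM, while Hpgd was highest in fibroblasts.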

How the data were processed

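The authors deposited integer UMI counts per gene and cell barcode, made with Cell Ranger 3.1.0 per the file headers. Cell Ranger, STAR and the mm10 build are named per the submitters' processing notes, and the annotation release is not given in the sources used here. Barcodes with at least 300 genes and at most 15% mitochondrial UMIs were kept. Doublets were scored by simulation with scanpy 1.11.5, and the highest scores, 0.8% per 1000 barcodes, were left out (149 to 341 a library). Libraries shared 33 to 87 barcodes a pair (0.63 to 1.28% of the smaller). No per-sample value column was left unused (0).

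Cells were clustered with leidenalg 0.10.2 on 2000 variable genes without the members. The settings were 40 components (fewer for leukocytes), 20 neighbours and resolution 1 (1.5 for leukocytes). A cluster was named from at least 3 raised markers, and stayed unnamed where its leading genes went against the name or pointed to 2 classes, rules completed after clusters were seen. UMI counts were summed per library and class with at least 10 cells in every library and tested with edgeR 4.0.16 (filterByExpr, TMM, quasi-likelihood, Benjamini-Hochberg over all genes of the class, threshold 0.05), without a replicate block. DESeq2 1.42.0 was an alternative, with other scalings, filters, cell filters, clusterings, a fixed cluster mix and each library left out. Shares were compared by two-sided exact permutation tests, and the script was tested on simulated data. Promoters are RefSeq windows of GRCm38.p6.

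The members and gene lists were chosen with earlier results of these data known. All 10 members are described. Named pathway genes are among the 3 of each list furthest from 0 of those called over all cells, or calls within a class, at most 1 a list and class. Genes alike in pattern are among the 3 with the highest correlation. The Cma1 split was chosen after values were seen. The replicate numbers were not taken as pairs, since nothing says that a number marks a shared animal, day or batch.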

Additional observations from a re-analysis of the deposited data

Results flagged for a closer look

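These results are listed because a class's change differed from that of all other kept cells by an interaction test in edgeR, given as the difference of log2 changes. The other cells changed their own mix, so each value is relative to a changed mix. In dendritic and Langerhans-like cells the differences were -1.84 for Alox5, -1.10 for Alox5ap, -2.60 for Hpgds, -2.78 for Ltc4s, -1.65 for Ptgs1 and -1.80 for Ptgs2. In macrophage and monocyte-like cells they were -1.42 for Alox5ap, -3.22 for Hpgd and -2.41 for Ltc4s. The Hpgd value rests on 18 UMIs in EC-SAL and 6 in EC-OVA, too few for the test within the class. In keratinocyte-like cells they were -1.05 for Hpgd, 2.70 for Hpgds, -0.69 for Ptges, 0.45 for Ptgs1 and -0.58 for Ptgs2. In fibroblast-like cells they were 0.98 for Hpgd and 0.76 for Ptges, in chondrocyte-like cells 0.57 for Ptges, and in tendon and perichondrium-like cells 0.76 for Ptges and -0.89 for Ptgs2. In vascular endothelial-like cells they were -2.71 for Hdc and 2.43 for Ltc4s, which passed the class filter on low counts only through EC-OVA, and in lymphatic endothelial-like cells 1.24 for Ltc4s. In Schwann-like cells the fitted value for Ptgds was -11.03, from 32 UMIs in EC-SAL, 29 of them in replicate 1, and 0 in EC-OVA, so it gives no size. It was lost without the libraries numbered 1 or 3.

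In the barcodes that the cell filter left out, Hdc, Alox5ap and Ptgs2 were higher in every EC-OVA library than in any EC-SAL one. Mean Hdc there was 20.5 CPM in EC-OVA and 1.67 CPM in EC-SAL. Alox5ap stood at 13.7 and 5.08 CPM, and Ptgs2 at 33.1 and 19.7 CPM. Ptges (77.5 and 138 CPM) and Ptgs1 (93.8 and 123 CPM) were lower in every EC-OVA library, and the other members overlapped. The share of all genes that differ there was not computed.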

How the results depend on the processing

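All 6 calls over all kept cells were kept in every alternative, with 6 to 7 calls when 1 library was left out. Within classes 15 combinations were called. Leaving out 1 library gave 10 to 15 calls, 9 to 13 of them among the 15 (9 without EC-SAL replicate 2). DESeq2 gave 11, all among the 15, and no filter 19, which include the 15. A fixed cluster mix gave 5: it kept 3 of the 13 calls in classes of several clusters, and 2 are in classes of 1 cluster, carried over as they were. Against the other cells 20 to 22 of 23 were called without 1 pair of libraries. A fit with a replicate block called 7 over all cells, adding Ptgds (-1.05, adjusted p = 0.035), and 17 within classes, with all 15 kept. Same-numbered libraries had correlations of 0.498, 0.319 and -0.066, so the numbers were not taken as pairs, and not every library correlated best with its own number. For the values below that changed sign, the cause was not tested. Alox5 over all cells was -0.0075 with the block, -0.15 with stricter and -0.027 with looser cell filters, -0.14 with doublets kept and -0.17 to -0.077 without 1 library (-0.15 without EC-SAL replicate 1). Alox5ap in macrophages and monocytes was 0.035 with no filter, 0.052 and 0.059 with stricter and looser cell filters, and between -0.091 and 0.068 without 1 library. Ptges was -0.23 in chondrocytes at resolution 2 and between -0.052 and 0.10 there without 1 library, with -0.0042 and -0.0039 among them. Without 1 library it ranged from -0.046 to 0.57 in hair matrix and from -0.19 to 0.59 in tendon cells. Ptgs1 in vascular cells ranged from -0.18 to 0.064 without 1 library (0.052 without EC-SAL replicate 3). At a fixed cluster mix Ltc4s (0.41), Ptgs1 (0.27) and Ptgs2 (0.39) changed sign in dendritic cells, and Hpgds (0.25) in macrophages and monocytes. Hpgds at a fixed class mix was -0.88 with EC-OVA weights and between -0.29 and 0.17 without 1 library, with -0.083 and -0.023 among them. Thinned to 500 UMIs, the difference in the percent of cells with an Ltc4s UMI was -0.23 in lymphatic and -0.070 in vascular cells. Basophil-like, neutrophil-like and melanocyte-like cells were too few for tests within the class.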
